A study of Gallus gallus with 21 samples.

Results

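The contractile apparatus of smooth muscle was described here through 8 genes, ACTG2, ACTA2, MYH11, TAGLN, CNN1, DES, MYLK and LMOD1, in the testis, ovary, heart and brain of the chicken embryo. The set was chosen by the testis and ovary values of the same arrays, in which ACTG2 and MYH11 had come out among the strongest differences. Their gonad values are therefore given as a description with no test. Of the 8 genes, 5 have probe sets that carry their symbol, in total 8 of the 19874 probe sets in the table. No probe set was named for ACTA2, CNN1 or LMOD1, so these genes were not analysed here. ACTG2, MYH11, TAGLN and DES have 1 probe set each, and MYLK has 4. In gonads 4 of the genes have values (all but TAGLN), in heart all 5 with a probe set, and in brain 4 (all but DES).

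RNA came from 8 chicken embryos, for which the labels name no treatment, after 18 days of incubation, 4 females and 4 males, numbered by the labels. Female brain and heart had 4 arrays each (embryos 2, 10, 12 and 20), male brain and heart 3 each (embryos 16, 19 and 21), ovary 3 (embryos 2, 12 and 20) and testis 4 (embryos 9, 16, 19 and 21). Ovary and testis here mean the left gonad of female and male embryos, the brain sample was labelled as diencephalon, and a different extraction kit was used for gonads than for heart and brain. Values are log2 intensities of probe sets as deposited, so a difference of 1 is a doubling of signal, and a difference between tissues includes any effect of the kit.

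Smooth muscle cells contract when myosin filaments built on the heavy chain MYH11 pull on actin filaments, for which vertebrate smooth muscle has a pair of isoforms, the vascular ACTA2 and the enteric ACTG2. Contraction is switched on by MYLK, the kinase that phosphorylates the regulatory light chain of myosin. TAGLN and CNN1 bind the actin filaments, LMOD1 nucleates them, and DES is the intermediate filament protein that links contractile units to each other, in striated muscle as well. In the gonad such cells are known in vessel walls, in the contractile cells around the seminiferous cords of the testis and in the stroma of the ovary. In bulk RNA, a lower signal from fewer cells of a type and from less RNA per cell cannot be told apart.

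The labels were checked on genes of known tissue and sex. HINTW, a gene of the female-specific W chromosome, lay between 11.28 and 13.64 in every female array and between 2.22 and 2.57 in every male array. FOXL2 and CYP19A1, which mark the ovary, were at 6.34 or higher in ovaries and at 2.58 or lower in testes. Heart was marked by TNNT2, a cardiac troponin, at 15.06 or higher, and brain by SNAP25, a synaptic protein, at 11.52 or higher. Within each group of sex and tissue, arrays correlated with each other at 0.965 to 0.981 over probe sets.

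ACTG2, the enteric smooth muscle actin (chromosome 22 in the GRCg7b gene table), was high in testis and low in every other group. The testes of embryos 9, 16, 19 and 21 had 11.15, 11.50, 10.89 and 11.28. The ovaries of embryos 2, 12 and 20 had 5.24, 5.24 and 5.04. The gonads were thus separated by a gap of 5.64 with no overlap, and no ovary stood out. The mean was 11.20 ± 0.25 (SD, n = 4) in testis against 5.17 ± 0.12 (SD, n = 3) in ovary, which is 65.3-fold. This difference ranked at place 9 of the 16499 probe sets with gonad values. Over those probe sets the median difference was 0.02, the central 95% lay between -2.58 and 1.84, and 39.9% had testes and ovaries that did not overlap.

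Outside the testis the signal of ACTG2 stayed close to that of the ovary. Female hearts (embryos 2, 10, 12 and 20) had 5.34, 5.27, 5.27 and 5.07, a range that overlaps that of the ovaries. Male hearts had 6.38 in embryo 16, 6.26 in embryo 19 and 5.15 in embryo 21. The first 2 of these lay above every female heart and every ovary, while the third lay within the range of the female hearts. Brain was lowest, with 4.23 to 4.90 in 4 females and 4.26 to 4.91 in 3 males. In falling order of mean the groups were testis (11.20), male heart (5.93), female heart (5.24), ovary (5.17), female brain (4.58) and male brain (4.52). The ranges of male and female heart, of female heart and ovary, and of the brains of both sexes overlap, so that only testis against male heart and ovary against female brain were neighbours apart from each other. Muscle actins are near-identical, and an actin probe set can take up signal from another member of the family. In heart, where ACTC1, the cardiac actin, was at 15.23 or higher in every array, ACTG2 was at 6.38 or lower. ACTA2 has no named probe set and so no value in testis, and uptake of signal from other actins was not tested.

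MYH11, the smooth muscle myosin heavy chain (chromosome 14), was also highest in testis. The testes of embryos 9, 16, 19 and 21 had 10.31, 10.29, 9.32 and 10.48. The ovaries of embryos 2, 12 and 20 had 6.49, 6.13 and 5.33. The testis of embryo 19 was the lowest of its group by almost 1 log2 unit and still lay 2.83 above the highest ovary. The mean was 10.10 ± 0.52 (SD, n = 4) against 5.98 ± 0.59 (SD, n = 3), or 17.3-fold, at place 48 of 16499.

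Heart held MYH11 between the levels of testis and ovary. Its values were 7.82, 8.49, 8.55 and 8.16 in female embryos 2, 10, 12 and 20, and 8.59, 8.44 and 8.26 in male embryos 16, 19 and 21. The sexes overlapped, and every heart lay below every testis and above every ovary. Testes were higher than male hearts by 1.67, whereas ovary minus female heart was -2.27. Brain values were low and scattered, at 3.56, 3.30, 5.42 and 5.52 in female embryos 2, 10, 12 and 20 and at 4.48, 5.41 and 4.01 in male embryos 16, 19 and 21. The order of means was testis (10.10), male heart (8.43), female heart (8.25), ovary (5.98), male brain (4.63) and female brain (4.45). The neighbours that overlapped were the hearts of both sexes, the brains of both sexes, and ovary with male brain by the smallest ovary value.

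MYLK, the myosin light chain kinase (chromosome 7), had a high signal in all 6 groups and a smaller step between the gonads. Its brightest probe set read 12.57, 12.70, 12.31 and 12.43 in the testes of embryos 9, 16, 19 and 21. Ovaries 2, 12 and 20 read 11.71, 11.34 and 11.46. The gonads did not overlap, and the testis of embryo 19 was again the lowest of its group. The means were 12.50 ± 0.17 (SD, n = 4) and 11.51 ± 0.19 (SD, n = 3), a difference of 0.996, close to a doubling. The other probe sets of MYLK gave testis minus ovary differences of 0.94, 1.52 and 1.46. The last of these overlapped between the gonads and had an ovary mean of 3.50, below the level of 4.0 that the sex with the higher mean reached in every probe set with values. MYLK can also give rise to non-muscle kinase and to telokin, and the files do not say which transcripts each probe set reads.

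Among tissues, MYLK was high in heart as well. Female hearts had 12.41, 12.21, 12.36 and 12.15 and male hearts 12.12, 11.87 and 12.06, so every heart lay above every ovary while the female hearts overlapped the testes. The other probe set with values in all tissues did not keep this order. In it male hearts ranged from 8.39 to 9.91 and overlapped both ovaries (7.78 to 8.56) and testes (8.58 to 9.75), with a testis minus male heart difference of 0.07. In the brightest probe set, brain was at 9.72 to 10.42 in females and 10.03 to 10.34 in males. In order of mean in the brightest probe set, testis (12.50) and female heart (12.28) overlapped, male heart (12.01) was next, and ovary (11.51), male brain (10.18) and female brain (10.04) followed, of which only the brains overlapped.

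DES, desmin (chromosome 7), did not separate the gonads. The testes of embryos 9, 16, 19 and 21 had 6.41, 7.14, 6.16 and 7.18, while ovaries 2, 12 and 20 had 6.12, 6.46 and 6.56. The groups overlapped and the mean difference was 0.34. Heart, whose striated muscle is rich in desmin, read 9.77, 9.57, 10.02 and 10.24 in females and 10.26, 10.16 and 9.96 in males. Every heart lay above every gonad. The mean difference was -3.40 for testis minus male heart and -3.52 for ovary minus female heart.

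TAGLN, transgelin (chromosome 24), had values only in heart and brain. Hearts of female embryos 2, 10, 12 and 20 read 7.30, 7.33, 7.40 and 6.92, and those of male embryos 16, 19 and 21 read 7.88, 7.19 and 6.87. Brains lay between 6.01 and 6.32 in females and between 6.01 and 6.11 in males. Every heart was above every brain, as for 29.8% of all probe sets with values in both, and the sexes overlapped in both tissues. None of the 5 genes lies on the Z or W chromosome in the gene table.

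**Figure D1:**
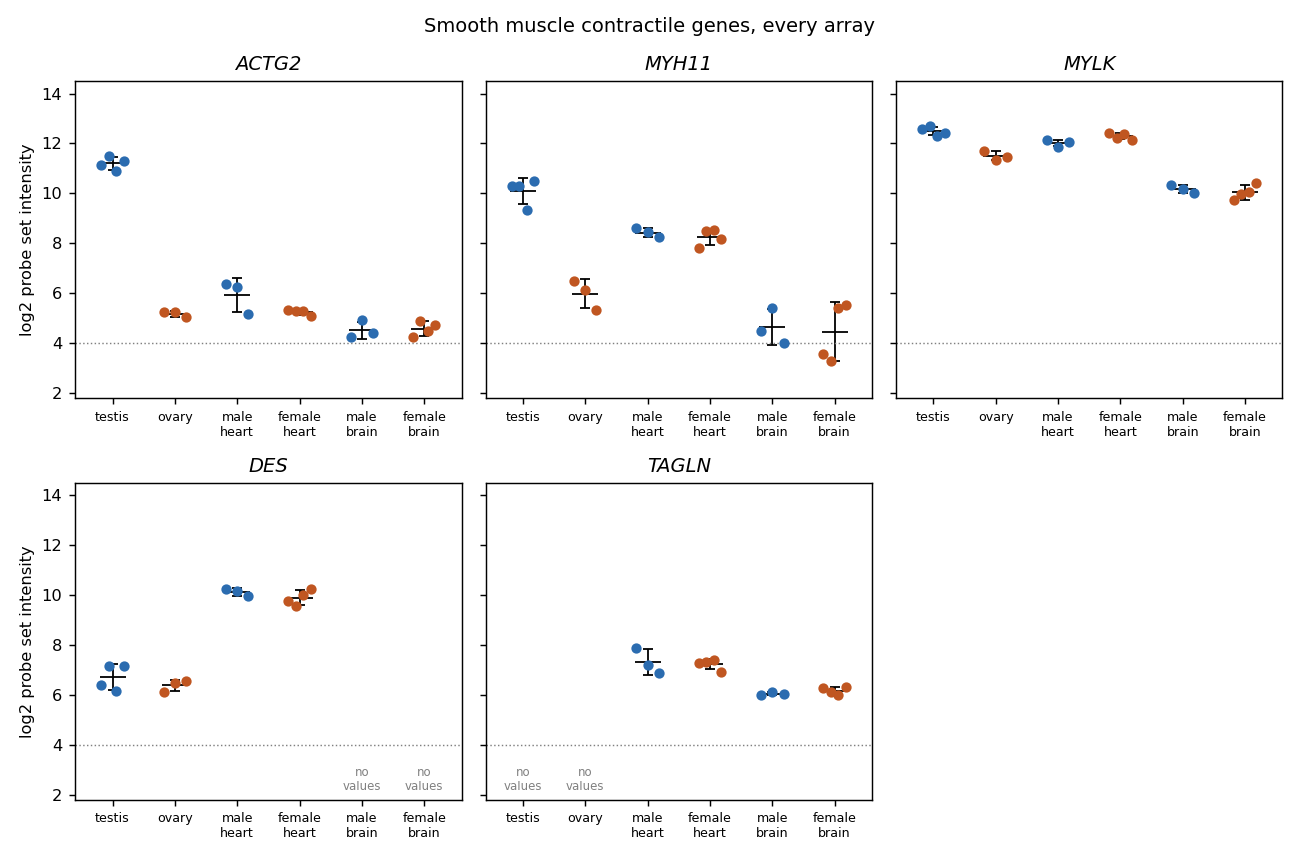
Log2 probe set intensity of the 5 genes with a probe set in every array, by group (points: arrays, males blue and females orange; black marks: mean and SD; dotted line: log2 of 4.0; for MYLK the brightest probe set). ACTG2 in the 4 testes sits at 10.89 or higher and every other array at 6.38 or lower, while DES overlaps between testis and ovary.

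Across the gonads the genes thus differed in size. From ACTG2 over MYH11 and MYLK to DES the testis minus ovary difference was 6.03, 4.12, 0.996 and 0.34. The testis of embryo 19 was the lowest of the 4 testes in all 4 genes with gonad values, each by its brightest probe set. In another MYLK probe set embryo 21 was lowest, at 8.58. With embryo 19 left out, the differences of ACTG2 and MYH11 were 6.13 and 4.38. Every testis lay above every other array, heart and brain included, for ACTG2 and MYH11, as it did for 6.44% of the 11710 probe sets with values in all tissues, and not for MYLK.

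The sexes were compared by limma in heart and brain, contrasts that had no part in the choice of genes. In heart, 0 of 5 genes were called at a fold-change over 1.5 with a Benjamini-Hochberg adjusted p under 0.05, where 1.34% of all probe sets were called higher in males and 0.393% higher in females. One gene, ACTG2, passed an unadjusted p of 0.05. It was higher in males by 0.69 (95% interval 0.21 to 1.17, limma adjusted p = 0.256), carried by male embryos 16 and 19. Without embryo 21 the difference was 1.08 (limma adjusted p = 0.021) and ACTG2 was called. The other differences between male and female heart were 0.18 for MYH11, 0.08 for TAGLN, 0.23 for DES and -0.27 for MYLK, whose interval ran from -0.57 to 0.03. All intervals given are normal ones from the limma standard error, somewhat narrower than its t distribution would give.

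In brain, 0 of 4 genes were called and 0 passed an unadjusted p of 0.05 by limma, against 1.27% of all probe sets higher in males and 0.31% higher in females. Male minus female differences were -0.06 for ACTG2, 0.18 for MYH11, -0.12 for TAGLN and 0.14 for MYLK. For MYH11, whose brain values scattered most, the interval from -0.78 to 1.15 leaves room for a difference of 2-fold in favour of males. Whether the sexes differed more in heart than in brain was tested as an interaction, and 0 of 4 genes passed, as did 0.0538% of all probe sets. ACTG2 came closest with 0.75 (limma adjusted p = 0.650, unadjusted p = 0.047).

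Heart and brain came from the same embryos and the same kit, and all 4 genes measured in both were higher in heart. The share of all probe sets called higher in heart was 33.0%, and 25.5% were called lower. MYH11 differed most, by 3.80 (SE 0.35), or 13.9-fold, followed by MYLK with 2.04 (SE 0.11), TAGLN with 1.16 (SE 0.14) and ACTG2 with 1.03 (SE 0.17). The largest of their adjusted p-values (limma) was 3.4e-05. Within embryos, heart was above brain in 7 of 7 for each gene. The step of ACTG2 varied most in proportion, from 0.36 in female embryo 20 to 2.12 in male embryo 16. That of MYH11 ran from 2.64 in female embryo 20 to 5.19 in female embryo 10, with brains spread over 3.30 to 5.52 and hearts over 7.82 to 8.59. Most markers of vessels and connective tissue moved alike. Of 11 genes of endothelial cells and pericytes, 10 were called higher in heart and 1 lower, and 9 of 9 of connective tissue were called higher. Their part in the difference was not tested.

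**Figure D2:**
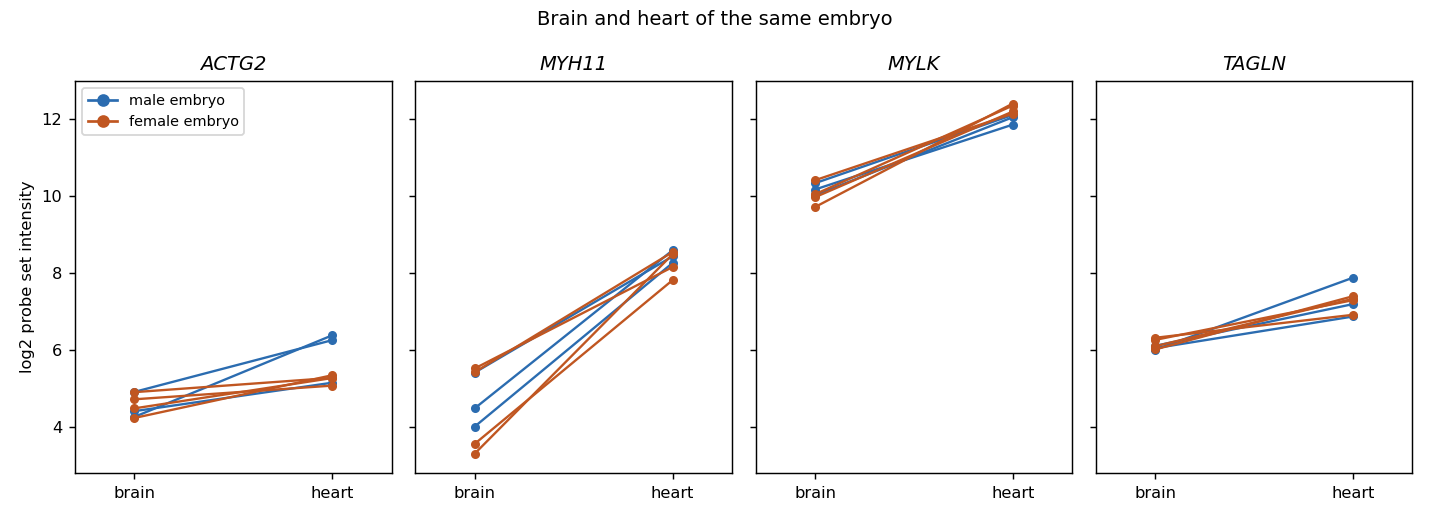
Log2 probe set intensity of ACTG2, MYH11, MYLK and TAGLN in brain and heart, with a line for each of the 7 embryos that have both tissues (blue: males, orange: females). Every line rises from brain to heart.

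The wider contractile system was followed through 5 lists of other genes, with 64 of 106 genes measured in gonads. Limma called 26 of the 64 higher in testis and 5 higher in ovary, against 12.8% and 13.8% of all probe sets, and the median difference was 0.47 against 0.02 over all. The lists were chosen with earlier results of these data known, so these counts describe the genes and do not test the lists. The first list holds proteins of the filaments and their anchors. Of its 22 measured genes, 10 were higher in testis, 1 in ovary and 11 were not called, with a median of 0.69. ITGA8, an integrin subunit found on smooth muscle, was higher in testis by 2.36 (SE 0.27, adjusted p = 0.00035). CSRP1, a LIM protein of the actin cytoskeleton, was higher by 2.29 (SE 0.25, adjusted p = 1.9e-06), at 10.27 to 11.18 in testes and 8.34 to 8.61 in ovaries. TMOD1, which caps actin filaments and is Z-linked, differed by 2.22, and PDLIM7, which binds actinin at the filament ends, by 1.38. The authors report that Z-linked genes generally have a higher signal in males. Male means of TMOD1 were also above female means in heart (13.08 against 12.24) and brain (7.98 against 7.06), without a call.

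Tropomyosins, the proteins that run along actin filaments, were called as well. All 6 TPM1 probe sets with gonad values were called higher in testis, by 0.97 to 1.61. TPM2, which is Z-linked, was at 14.44 in testis and 13.45 in ovary in its brightest probe set. There its male means were also above its female means in heart (11.33 against 10.74) and brain (10.38 against 9.53). Of the 6 TPM2 probe sets, 4 were called higher in testis, and the differences ran from -0.62 to 1.17. The 1 gene higher in ovary was PDLIM3, an actinin-associated protein of muscle. Its testis minus ovary difference was -2.93 in the brightest probe set and -0.62 in the other. In the brightest, the testes of embryos 9 and 16 were at 3.10 and 3.40, under 4.0. Testis 19, at 6.74, approached the lowest ovary at 6.80, and the call was lost when any of embryos 9, 12, 16, 20 or 21 was left out. The partners that were not called included MYL9, the regulatory light chain on which MYLK acts in smooth muscle, with a difference of 0.26, and VIM, vimentin, with 0.25 (both chosen after their values were seen).

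The second list holds receptors, channels, kinases and phosphatases that switch contraction on and off. Of 13 measured, 4 were higher in testis, 0 in ovary and 9 were not called, with a median of 0.20. KCNMB1, the smooth muscle subunit of the large-conductance potassium channel, had 11.27, 11.27, 11.28 and 11.45 in the testes of embryos 9, 16, 19 and 21. Ovaries 2, 12 and 20 had 6.98, 7.17 and 5.19. The difference was 4.87 (SE 0.45, adjusted p = 0.00011), and the testes varied less than the ovaries. The only probe set of the pore subunit KCNMA1 with gonad values was higher by 2.91 (chosen after its value was seen). PRKG1, the cGMP-dependent kinase of relaxation, was higher by 1.83, AGTR1, an angiotensin receptor, by 1.62 and PPP1R12B, a myosin phosphatase subunit, had means of 6.28 and 4.78. The call of AGTR1 was lost without any of embryos 2, 9, 16 or 20 and with each tissue fitted alone, and that of PPP1R12B without embryo 16, which left 2 calls in the list. RHOA and ROCK1, general regulators of contractility, differed by 0.03 and 0.16 and were not called (chosen after their values were seen).

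The third list holds transcription regulators of smooth muscle genes. Of 8 measured, 3 were higher in testis, 2 in ovary and 3 were not called, with a median of 0.33. MYOCD, myocardin, the coactivator that drives smooth muscle and cardiac genes through the factor SRF, had 8.78, 8.98, 7.98 and 8.74 in the testes of embryos 9, 16, 19 and 21. Ovaries 2, 12 and 20 had 6.29, 4.91 and 6.05. The groups did not overlap and differed by 2.87 (SE 0.32, adjusted p = 1.8e-05). Both lay below the hearts, at 10.07 to 10.76. SRF itself, at 6.52 in testis and 6.34 in ovary, was not called (chosen after its values were seen). CSRP2, a LIM cofactor of smooth muscle, was higher in testis by 1.61 and TEAD3 by 1.22, though TEAD3 lost its call without any of 6 embryos (2, 9, 12, 16, 19 and 20) and with array weights. GATA6 and HAND2, regulators of mesoderm and heart that also act in smooth muscle, were higher in ovary, with testis minus ovary differences of -1.48 and -1.46. HAND2 overlapped between the gonads and lost its call without embryo 2, 12, 16 or 19 and with each tissue fitted alone. Its testis mean of 3.54 lies under 4.0.

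The fourth list holds growth signals that recruit or maintain smooth muscle and mural cells. Of 12 measured, 4 were higher in testis, 1 in ovary and 7 were not called, with a median of 0.19. The 4 belong to platelet-derived growth factor signalling. PDGFRA, a receptor of testicular stroma, was at 9.34 to 9.84 in testes and 7.04 to 8.16 in ovaries, a difference of 1.98 (SE 0.42, adjusted p = 0.0015). The ligands PDGFD, PDGFA and PDGFB were higher in testis by 1.13, 0.96 and 0.93, while the ligand PDGFC (-0.36) and the receptor PDGFRB (0.29) were not called. TGFB2, a transforming growth factor, was higher in ovary (-1.11).

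**Figure D3:**
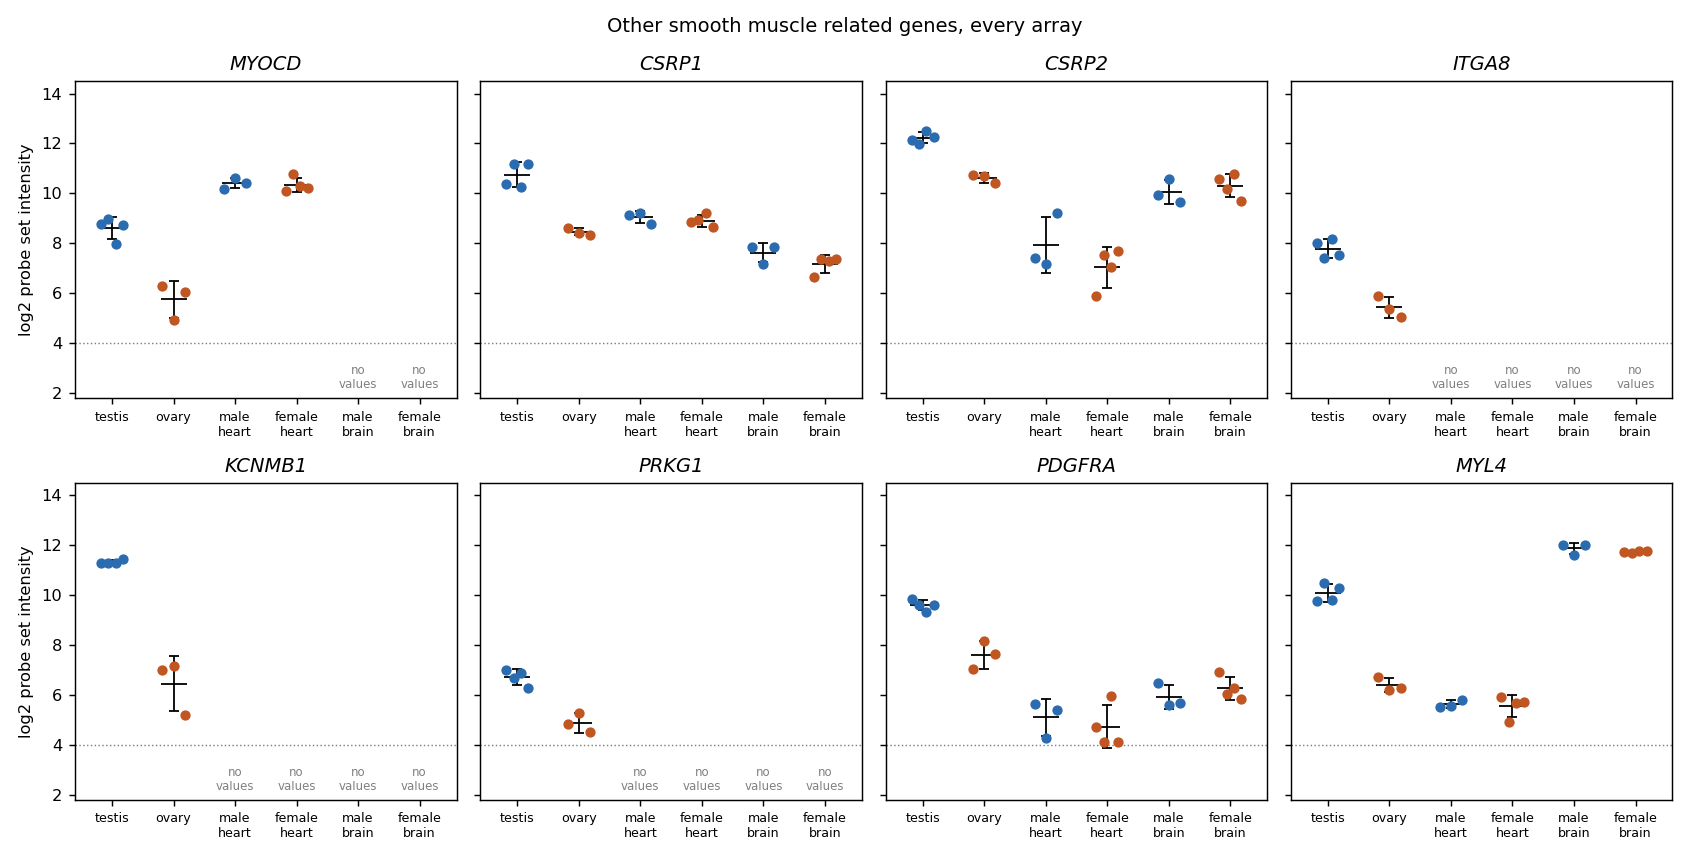
Log2 probe set intensity of 8 other genes of the smooth muscle lists in every array (marks as in the plot of the contractile genes). The 8 were picked from the list genes called higher in testis, and list genes called higher in ovary are not drawn. Their higher testis means thus follow from the choice. In gonads all 8 are higher in every testis than in every ovary, where 39.9% of all probe sets did not overlap in either direction. MYL4 is highest in brain.

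Genes known mainly from striated muscle formed the fifth list, in which 5 of 9 measured were higher in testis, 1 in ovary and 3 were not called, with a median of 0.86. MYL4, an embryonic and atrial myosin light chain, was at 9.75 to 10.48 in testes and 6.21 to 6.71 in ovaries, a difference of 3.67 (SE 0.22, adjusted p = 1.2e-09). Its signal was higher still in brain, at 11.61 to 12.02, and lower in heart, at 4.92 to 5.91. MYL2 was higher in testis by 2.07. MYL3 and ACTC1 were higher too, from ovary means of 3.56 and 3.07 that lie under 4.0, so that only a lower limit of 2.77 and 1.75 can be given with values under 4.0 set to 4.0 (3.41 and 2.69 as measured). In both gonads MYL2, MYL3 and ACTC1 were far below heart. ACTC1 scattered from 4.30 in embryo 9 to 7.33 in embryo 21 among the testes, and lost its call without embryo 2. MYOZ2, a calcineurin-binding protein of the sarcomere, ran the other way. The ovaries of embryos 2, 12 and 20 had 10.22, 10.04 and 10.41, and no testis was above 3.01. With the testes, all under 4.0, set to 4.0, the testis minus ovary difference was -6.22, a lower limit on its size (-7.54 as measured, adjusted p = 3.2e-13), and its sign was opposite to that of ACTC1, MYL2 and MYL3.

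**Figure D4:**
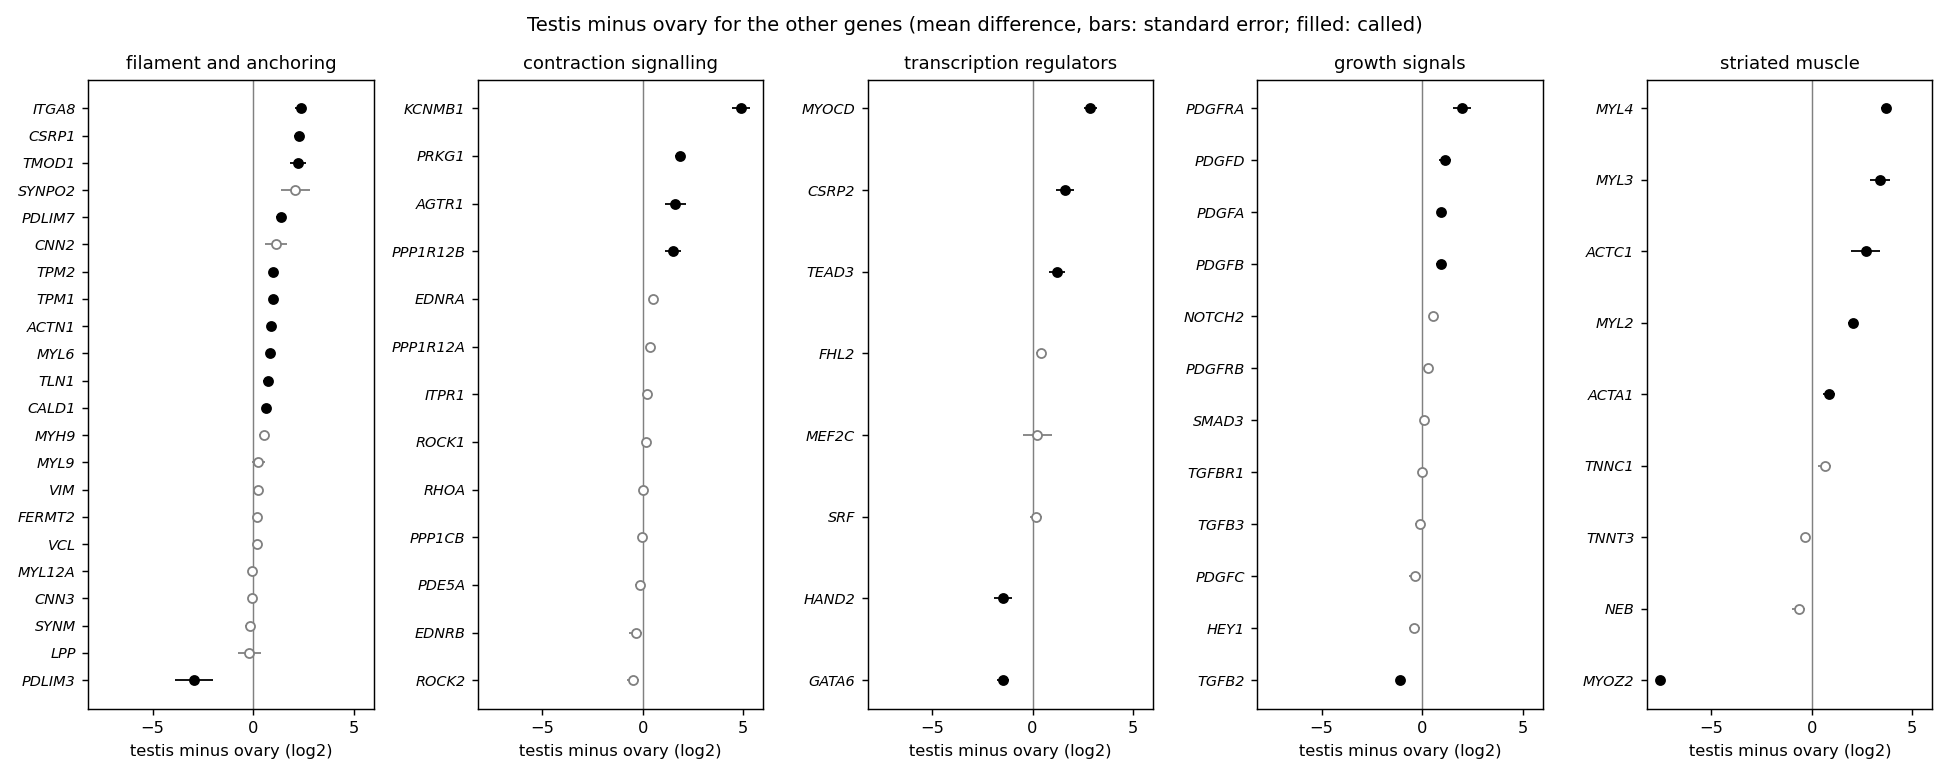
Testis minus ovary difference in log2 intensity for each measured gene of the 5 lists, with its standard error (filled points: called by limma, fold-change over 1.5 and adjusted p under 0.05; open points: not called). KCNMB1 at 4.87 and MYL4 at 3.67 lie farthest towards testis, and MYOZ2, whose testis values lie under 4.0, at -7.54 towards ovary.

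Outside the gonads few list genes were called between the sexes. In heart, 0 of 72 measured genes were called (1.73% of all probe sets in either direction), with 3 at an unadjusted p under 0.05. In brain 1 of 46 was called (1.58%), with 6 at an unadjusted p under 0.05. Over all probe sets 10.5% in heart and 10.2% in brain passed that unadjusted level. The one was TPM2, higher in males by 0.85 (adjusted p = 0.0023). Between heart and brain, 29 of 46 genes were called higher in heart and 6 lower, against 33.0% and 25.5% of all probe sets.

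Some markers of other cells in the gonads were also called between testis and ovary. Over all probe sets 12.8% were called higher in testis and 13.8% higher in ovary. Of 7 Sertoli cell genes, 4 were higher in testis and 3 were not called, with a median of 1.23. CLDN11 was higher by 5.93, and INHA, at 1.84 or lower in every ovary, by at least 5.47 over a level of 4.0 (7.64 as measured). Of 12 connective tissue genes, 6 were higher in testis and 6 were not called, with a median of 0.56, and COL6A1 (1.29) and LUM (1.04) led. The summed connective level, as the mean log2 over the 12 genes, was 11.35 to 11.57 in testes and 10.99 to 11.21 in ovaries. LUM lost its call without embryo 2, 9, 12 or 20. Markers of vessels split. Of 11, 5 were higher in testis, 3 in ovary and 3 were not called, with a median of 0.29 and mean levels of 9.02 to 9.36 in testes and 8.91 to 9.21 in ovaries. The pericyte channel genes KCNJ8 (by 1.52) and ABCC9 (11.93 against 10.73) were higher in testis, and the endothelial genes EGFL7 (-1.35) and VWF (-1.07) higher in ovary. Endothelial genes went both ways, since the 5 genes higher in testis outnumber the pericyte genes of the list (KCNJ8, ABCC9 and RGS5). For the endothelial gene KDR, probe sets other than its brightest gave -2.41, -2.47 and -1.24 (chosen after their values were seen). These are not part of the counts.

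Most measured genes listed for ducts and kidney, and for neurons and chromaffin cells, were called higher in the ovary samples. Of all probe sets 13.8% were. Of 4 duct and kidney genes, 3 were higher in ovary, 0 in testis and 1 was not called, with a median of -1.55. EMX2, listed among the duct and kidney genes, differed by -1.84. UMOD, a kidney gene, was at 7.37 to 7.54 in ovaries and at 2.97 or lower in testes, so with values under 4.0 set to 4.0 the difference was -3.48, a lower limit on its size (-4.90 as measured). The median was -1.25 with values under 4.0 set to 4.0 where a group mean was below it. Of 6 genes of neurons and chromaffin cells, 4 were higher in ovary and 2 were not called, with a median of -2.76. STMN2 was at 10.28, 8.70 and 3.02 in ovaries 2, 12 and 20 and at 3.07 or lower in testes, and CHGA at 7.17, 11.11 and 5.58 against 4.78 or lower. TH, DBH, STMN2 and SYT1 were under 4.0 on average in testis, and with values under 4.0 set to 4.0 where a group mean was below it the median was -1.91. The call of STMN2 was lost without embryo 2 or 12 and with each tissue fitted alone. Of 8 cardiomyocyte markers only RYR2 (ovary mean 3.80, testis mean 5.26) and MYL2 had gonad values, both higher in testis, and no skeletal muscle marker had. The part of these cells in the differences of ACTG2, MYH11 and MYLK was not tested.

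The testis of embryo 19 was also lowest of the 4 in the mean level of all 5 smooth muscle and muscle lists. The same held for the connective list, the vessel list and the 2 measured cardiomyocyte genes. Embryo 9 was lowest in the Sertoli list, the duct and kidney list and the list of neurons and chromaffin cells. Some genes of the last 2 lists lay under 4.0 on average in testis.

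The genes most like ACTG2 and MYH11 were sought among 11710 probe sets by the Pearson correlation of log2 values over all 21 arrays, a description in which arrays share tissue, sex and embryo. For ACTG2 these were a TPM1 probe set (0.959), CEP131 (0.951), LOC107049264 (0.940), PLCG1 (0.937) and PLCE1 (0.933). All 5 were higher in testis than in ovary on average, LOC107049264 by 6.36. ACTG2 itself was high in testis only, so choosing genes by likeness to it nearly fixed this direction. For MYH11 they were TEC (0.962), CENPW (0.936), GHR (0.935), FKBP7 (0.933) and LRRC17 (0.931), with TEC at 9.90 in testis and 5.44 in ovary. MYH11 itself was far higher in testis than in ovary, so this choice also favoured genes higher in testis. GHR is Z-linked. Among the contractile genes themselves, MYH11 correlated with MYLK at 0.931 and with ACTG2 at 0.769, and ACTG2 with MYLK at 0.629. In heart, MYH11 and MYLK were high and ACTG2 was not.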

How the data were processed

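RNA of each tissue was hybridized to Affymetrix Chicken Genome arrays. The extraction notes of heart and gonad name a human array, but every probe set name is that of the chicken array. The deposited log2 values are GCRMA expression measures, which by the authors' methods involve background correction, quantile normalization across arrays and summary by median polish. Their processing notes name R 2.4.1 and MAS5. Each probe set has values in all or none of the arrays of a tissue, with 16499 probe sets in gonads, 16113 in brain and 15282 in heart. The higher sex mean was at least 4.0 throughout. The number of arrays limits the precision.

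The members and gene lists were chosen with earlier results of these data known. Genes were assigned by the platform's gene table, which lists 1 gene for 16197 probe sets, several for 85 and none for 3592, and chromosomes from the GRCg7b table. For a gene with several probe sets, the brightest on average stands for it. Limma 3.58.1 in R 4.3.3 was fitted to all 21 arrays with 6 groups of sex and tissue and no block, and p-values were adjusted over all probe sets of the contrast. Calls required an adjusted p under 0.05 together with a fold-change over 1.5. From each pathway list up to 4 called genes in each direction were named, from each marker list up to 2, and 5 genes each as most like ACTG2 and MYH11. Genes named outside this rule are marked, apart from label checks, tropomyosins and PDGF genes, which were also chosen after their values were seen. The method was also run on simulated data with independent noise for each array and sex differences added within tissues. That run did not cover arrays that share an embryo, heart against brain or the interaction. Arrays of the same number and sex came from 1 embryo, and brain and heart of an embryo deviated from their group means together (correlations of 0.191 to 0.447 in 7 embryos). Alternatives were each tissue alone, the embryo as replicate block, array weights, median centring, a mean of at least 6, every probe set, other call rules and leaving out each embryo. Within a tissue each array came from a separate embryo, while arrays of different tissues could share one. Figures were drawn with matplotlib 3.10.9 in Python 3.11.15.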

Additional observations from a re-analysis of the deposited data

Results flagged for a closer look

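In 55 groups of 4 arrays tested for an array far from its group, 4 were found, and chance alone gives about 1 in 20. The testis of embryo 19 had MYH11 at 9.32, below the other testes at 10.29 to 10.48. The testis of embryo 21 had KCNMB1 at 11.45, above the others at 11.27 to 11.28, a gap that is small beside the difference to ovary. The testis of embryo 16 had the neuroendocrine gene CHGA at 4.78, above the others at 3.80 to 3.95. The same testis had RYR2 at 5.06, below the others at 5.32 to 5.33.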

How the results depend on the processing

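The number of contractile genes called between the sexes stayed at 0 in brain under every alternative, and in heart ran from 0 to 1 when embryos were left out, the 1 being ACTG2 without male embryo 21. The difference of TAGLN between male and female heart, 0.08, was called nowhere and changed sign, to -0.039 with array weights, and ran from -0.20 to 0.30 when embryos were left out (-0.03 without female embryo 20, -0.20 without male embryo 16). Of the 4 called between heart and brain, 2 could be tested where a mean of at least 6 was asked for. The pathway genes higher in testis, 26, became 17 at a fold-change over 2. With every probe set of these genes counted, 44 probe sets were called higher in testis, a count of probe sets and not of genes. Those higher in ovary, 5, ran from 3 to 5 when embryos were left out, the 3 without female embryo 12 or male embryo 16. The 1 pathway gene called in heart and brain became 0 with each tissue alone or at a fold-change over 2. With every probe set counted, 2 probe sets were called there. As the median over its probe sets, MYLK gave 1.23 for testis minus ovary, 0.28 for testis minus male heart and -1.05 for ovary minus female heart. With the embryo as replicate block, 0 of 5 contractile genes in heart and 4 of 4 between heart and brain were called, and no count moved by over 1.5 times. Of 37 list genes named in gonads, 29 kept their call throughout, 8 lost it under at least 1 alternative and 0 reversed.

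Signals near log2 4.0, such as the brain values of ACTG2 and MYH11, lie at the level that defines the table's lower end for the higher sex mean. With 3 or 4 embryos a group, the 95% interval of MYH11 between male and female heart ran from -0.79 to 1.15, so the absence of a call there does not show equal levels. By the authors' methods, probe sets were filtered in each tissue on average expression and on detection calls. A blank can thus mean a signal that did not pass this filter. TAGLN in gonads and DES in brain have no value here, so their levels cannot be given.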
